A study of Mus musculus with 22 samples.

Results

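The 38 genes described here encode complement components, clotting factors and the inhibitors that hold both systems in check, most of them proteins that hepatocytes secrete into plasma. They were taken from a list of gene names whose rule uses no measured value, drawn up with earlier results of these data known. All 38 were among the 24786 genes of the deposited liver table, and all 38 reached an RPKM (read count scaled to gene length and library size) of at least 1 in at least 2 of 6 livers, as did 12231 genes in all. Bulk RNA sequencing of whole mouse liver gave 2 libraries in each of 3 groups. CD8-depleted TG Aire-/- mice and untreated TG Aire-/- mice shared 1 genotype, and untreated Aire+/+ mice were the control group. TG stands for the dnTGFβRII transgene of the series title, a dominant-negative type II TGF-β receptor placed under the Cd4 promoter, so that it acts in T cells. Every mouse was C57BL/6 and between 2 and 4 weeks old, and no source used here names the agent that depleted the CD8+ T cells. The age of each liver within that range is not given, so the part of age in group differences was not tested. The Aire+/+ labels name no transgene, so the transgene and the loss of Aire cannot be told apart in the comparison with TG Aire-/- livers. Thymus and CD8+ T cell libraries of TG Aire-/-, TG Aire+/- and Aire-/- mice are only described, in the closing sections.

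Complement is a cascade of plasma proteases. Lectins that bind microbial sugars, antibody complexes or spontaneous turnover of C3 start it, C3 is its hub, and the terminal components assemble into a membrane pore. Coagulation is a parallel cascade in which vitamin K dependent proenzymes activate thrombin, thrombin turns fibrinogen into fibrin, and plasmin dissolves the clot. The liver makes nearly all of these proteins, which is why clotting time is a clinical measure of liver function. Albumin (Alb), the most abundant hepatocyte secretory product, was used as a yardstick for hepatocyte RNA.

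Inferred depth was between 20300000 and 22700000 reads per liver library. Hepatocyte markers were abundant in every liver. Their sum over 26 genes came to 103643 and 69414 RPKM in CD8-depleted livers, 64839 and 42219.7 in TG Aire-/- livers and 104622 and 99687 in Aire+/+ livers. Cd8a, a chain of the CD8 receptor, had 0 and 0.187 RPKM in CD8-depleted livers, 8.76 and 3.75 in TG Aire-/- livers and 0.161 and 0.220 in Aire+/+ livers, so the depleted livers carried little of it. By Xist and Y-linked genes, replicate 1 was male and replicate 2 female among TG Aire-/- and among Aire+/+ livers, and both CD8-depleted livers were male. In each of those mixed groups, sex and replicate cannot be told apart. The CD8-depleted livers stood apart from each other on some acute phase genes, not all in the same direction. Orm1 had 263 RPKM in replicate 1 and 2656 in replicate 2, and Saa1 had 17.6 and 747. Hamp, also in the acute phase list, was higher in replicate 1. So were the fibrinogen genes Fga (1587 and 1079 RPKM) and Fgb (3210 and 2277).

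Promoters are shown for fibrinogen, whose 3 genes lie side by side, and for 2 members whose windows hold the same liver motif as Fga. The 250 bases before the RefSeq transcription start (GRCm38.p6) are printed in the direction of transcription. Capitals mark motif matches on either strand. Fga lies at chr3:83025903-83026152 (plus strand), Fgb at chr3:83049864-83050113 (minus strand), Fgg at chr3:83007474-83007723 (plus strand), F13b at chr1:139501457-139501706 (plus strand) and C4bp at chr1:130661619-130661868 (minus strand).
Fga: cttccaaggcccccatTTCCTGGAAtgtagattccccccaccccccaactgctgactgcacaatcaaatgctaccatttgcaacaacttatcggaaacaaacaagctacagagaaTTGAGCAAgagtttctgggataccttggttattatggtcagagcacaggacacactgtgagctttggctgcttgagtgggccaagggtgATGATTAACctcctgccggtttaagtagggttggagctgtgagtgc
Fgb: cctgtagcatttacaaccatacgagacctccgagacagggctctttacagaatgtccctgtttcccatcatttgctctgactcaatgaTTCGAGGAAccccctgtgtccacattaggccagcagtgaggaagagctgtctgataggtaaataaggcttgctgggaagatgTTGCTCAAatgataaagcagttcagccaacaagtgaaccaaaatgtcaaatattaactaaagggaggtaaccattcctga
Fgg: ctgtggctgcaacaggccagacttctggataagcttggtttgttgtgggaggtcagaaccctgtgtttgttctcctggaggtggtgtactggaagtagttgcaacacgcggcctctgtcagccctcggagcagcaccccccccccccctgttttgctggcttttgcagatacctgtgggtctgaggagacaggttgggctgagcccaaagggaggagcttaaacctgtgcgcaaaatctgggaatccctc
F13b: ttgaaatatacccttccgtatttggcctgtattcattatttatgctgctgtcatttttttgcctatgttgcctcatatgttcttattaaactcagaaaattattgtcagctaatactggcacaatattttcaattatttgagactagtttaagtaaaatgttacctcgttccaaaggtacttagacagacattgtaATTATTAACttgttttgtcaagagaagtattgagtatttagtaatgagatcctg
C4bp: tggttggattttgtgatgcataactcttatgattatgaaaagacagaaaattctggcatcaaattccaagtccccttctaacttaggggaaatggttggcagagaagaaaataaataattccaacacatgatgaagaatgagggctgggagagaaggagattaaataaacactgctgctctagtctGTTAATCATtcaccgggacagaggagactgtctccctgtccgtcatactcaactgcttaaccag
Fga held a STAT element (TTCNNNGAA), a C/EBP element (TTGCNNAA) and an HNF1 element (GTTAATNAT) at −234, −135 and −46 from the start. Fgb held STAT and C/EBP elements at −162 and −80, and no searched motif was found in the Fgg window. F13b and C4bp each held the HNF1 element, at −54 and −64. HNF1 is a hepatocyte transcription factor, C/EBP factors drive many liver genes, and STAT3 carries the interleukin-6 signal in the acute phase response. RefSeq windows of 250 bases before to 50 after the start were available for 29 of the 38 members (30 windows). The HNF1 element stood in 10% of the member windows and in 0.801% of all 32851 windows, the STAT element in 23.3% and 8.30%, and the C/EBP element in 30% and 10.8%. An interferon-stimulated element (GAAANNGAA) was in 3.33% of member windows and 8.56% of all. An NF-kB element (GGGANTTCC) and an HNF4 element (CAAAGTCCA) were in 0 member windows, against 1.68% and 0.475% of all windows. Each match describes these letters only, and overlapping matches of different motifs were counted for each motif.

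**Figure D1:**
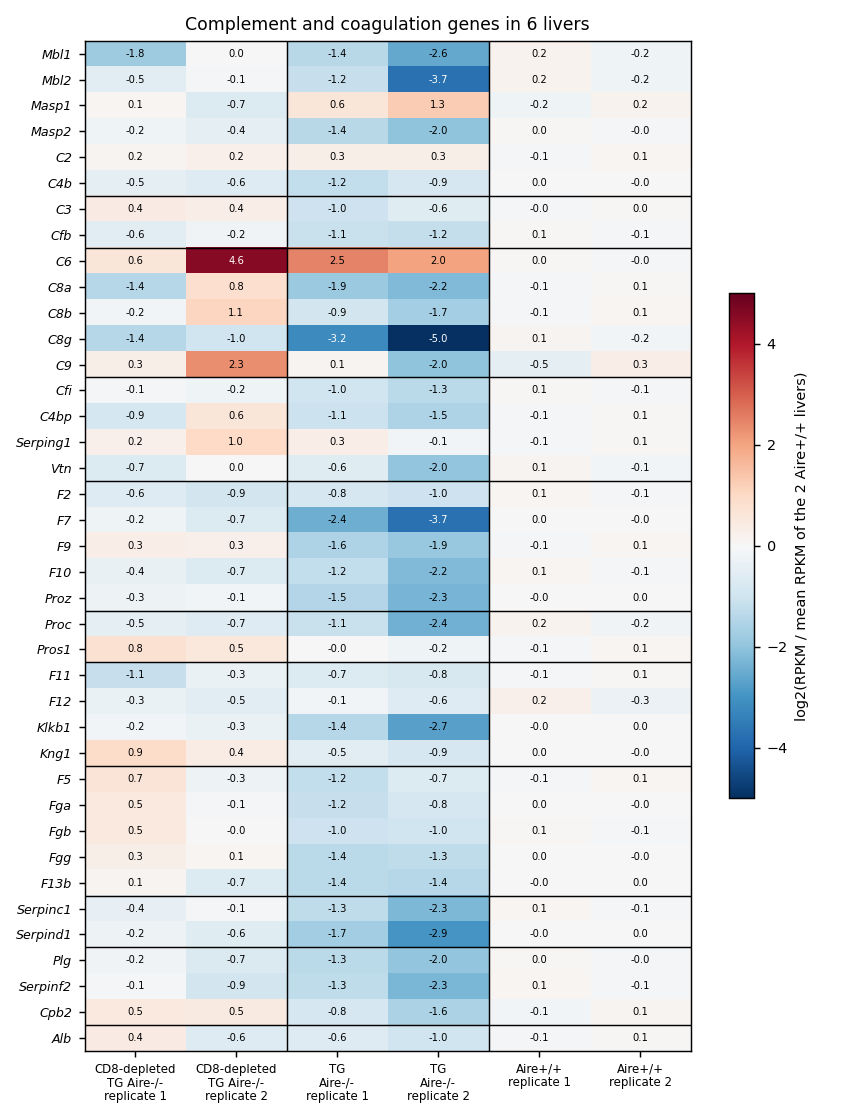
Each cell gives log2 of a library's RPKM over the mean RPKM of both Aire+/+ livers, for the 38 members in order of role and for Alb, with blue below and red above the Aire+/+ mean. The TG Aire-/- columns are blue for most members, C6 and Masp1 are red there, and C6 reaches its highest value in CD8-depleted replicate 2.

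In TG Aire-/- livers most of the complement and clotting genes were lower than in Aire+/+ livers. The summed RPKM of the 38 members was 17017 and 15779.5 in CD8-depleted livers, 8067.5 and 6707 in TG Aire-/- livers and 16516 and 15514 in Aire+/+ livers. As a share of all RPKM that is 4.74% and 4.06% in CD8-depleted livers, 1.96% and 1.84% in TG Aire-/- livers and 4.12% and 4.14% in Aire+/+ livers. Limma called 21 of 38 members lower in TG Aire-/- than in Aire+/+ livers (55.3%), where 5.5% of all genes tested were called lower. It called 0 members higher (1 at an unadjusted p under 0.05), where 31.8% of all genes were called higher. The median log2 difference was −1.27 over the members and 0.53 over all genes tested. In whole liver, fewer hepatocytes and less RNA per hepatocyte cannot be told apart. Hepatocyte markers moved with the members: 10 of 26 were called lower, 26 of 26 had a log2 difference below 0, and their median was −1.11. Marker genes of other cells moved the other way, with 11 of 12 macrophage, 11 of 11 T and cytotoxic cell, 10 of 11 endothelial and 7 of 8 erythroid genes called higher. Their part in the result was not tested.

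With any 1 library left out, the members' median log2 difference stayed between −1.54 and −1.12. Between 33 and 35 of 38 members then had estimates below 0. The count of members called lower moved more. It was 6 without Aire+/+ replicate 1, 4 without Aire+/+ replicate 2 and 7 without TG Aire-/- replicate 2, against 18 without TG Aire-/- replicate 1. With either CD8-depleted library left out it was 27. TG Aire-/- replicate 2 was below replicate 1 in 31 of 38 members, where it was in 38.7% of all genes tested, and the median ratio of the higher to the lower replicate was 1.35 among CD8-depleted, 1.44 among TG Aire-/- and 1.11 among Aire+/+ livers. Scaling by median of ratios moves the median of all genes to 0.00, and 29 members are then called lower. In 31 of the 38 members both TG Aire-/- values lay below both Aire+/+ values, as in 15.4% of all genes tested, and in 3 they lay above, as in 63% of all genes.

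**Figure D2:**
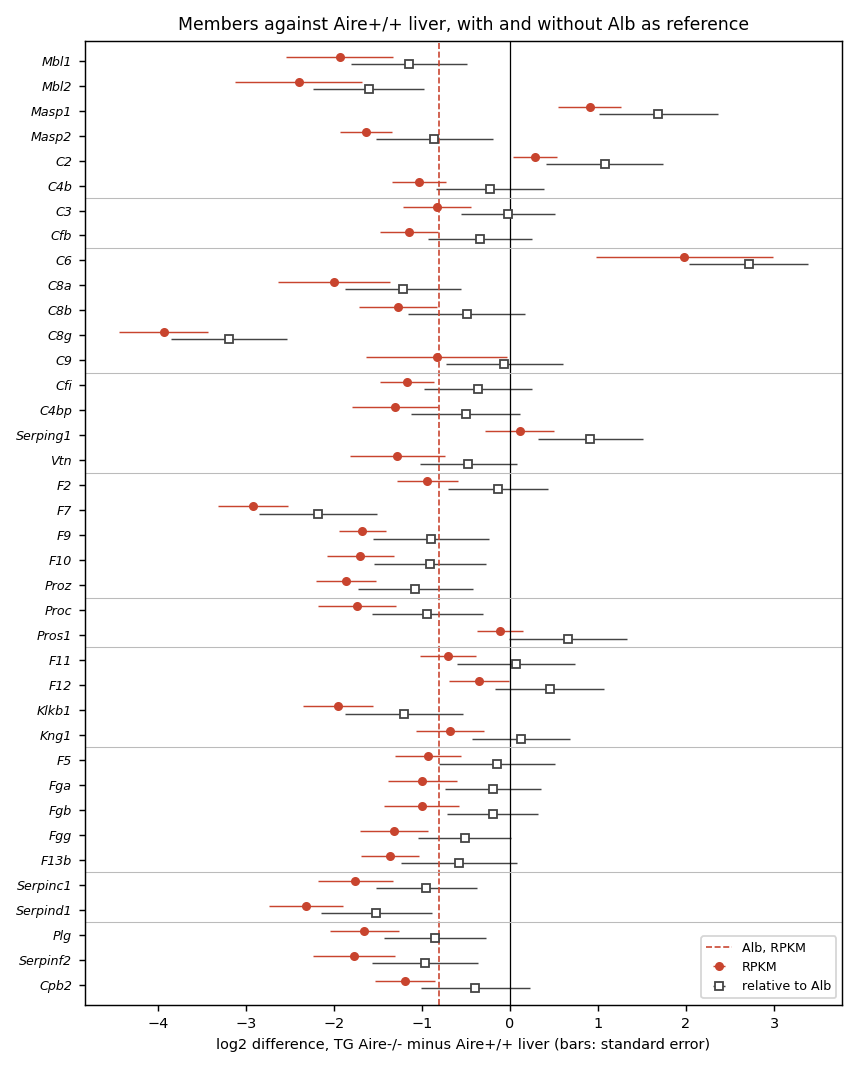
Log2 differences between TG Aire-/- and Aire+/+ livers with standard errors (n = 2 libraries each) are plotted for each member on RPKM (filled circles) and relative to Alb (open squares), with the Alb difference on RPKM as a dashed line. C8g, F7, Mbl2 and Serpind1 lie farthest to the left on both scales, and C6 and Masp1 lie to the right.

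Of the 6 genes of the lectin and classical routes into the cascade, 4 fell in TG Aire-/- livers. Mbl2, a mannose-binding lectin, had 125 and 21.2 RPKM in TG Aire-/- livers, against 317 and 243 in Aire+/+ livers (log2 difference −2.40, SE 0.722, adjusted p = 0.0361). Its TG Aire-/- replicates differed from each other 5.91-fold, both below the Aire+/+ livers, and without replicate 2 the call is lost. Mbl1, its paralogue, had 45.3 and 20.0004 RPKM in TG Aire-/- livers, against 136 and 103 in Aire+/+ livers (−1.93, adjusted p = 0.0416). Masp2, the lectin pathway protease that cleaves C4, had 23.4 and 15.01 RPKM in TG Aire-/- livers, against 62.2 and 58.7 in Aire+/+ livers (log2 difference −1.64, SE 0.298, adjusted p = 0.00667). The replicates of each group were close together compared with the gap between groups. Masp2 shares exonic bases with Tardbp on the other strand, and whether the authors' counting used strand is not known here. C4b, the mouse C4 of the classical and lectin pathways, had 135 and 174 RPKM in TG Aire-/- livers, against 321 and 308 in Aire+/+ livers (−1.03, adjusted p = 0.0349), and its reads cannot be fully separated from those of the near-identical C4a.

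Masp1 and C2 had estimates above 0, without a call. Masp1, whose gene encodes the lectin protease MASP-1 and the splice form MASP-3, had 24.4 and 38.5 RPKM in TG Aire-/- livers, against 13.9 and 18.1 in Aire+/+ livers (log2 difference 0.91, SE 0.357, adjusted p = 0.0809). Both TG Aire-/- values lay above both Aire+/+ values, but the difference did not pass the threshold. C2, the protease subunit of the classical C3 convertase, had 46.9 and 46.4 RPKM in TG Aire-/- livers, against 35.4 and 41.1 in Aire+/+ livers (log2 difference 0.28, SE 0.255, adjusted p = 0.397), and its sign turned under median-of-ratios scaling. Cfb, the alternative pathway counterpart of C2 and its direct neighbour on chromosome 17, had 231 and 214 RPKM in TG Aire-/- livers, against 519 and 469.6 in Aire+/+ livers and fell (−1.15, adjusted p = 0.0298). C3, the hub, had 675 and 895 RPKM in TG Aire-/- livers, against 1338 and 1421 in Aire+/+ livers (log2 difference −0.83, SE 0.388, adjusted p = 0.127). The C3 groups did not overlap, without a call.

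The terminal pathway held both the member with the lowest difference and the one with the highest. C8g encodes the gamma chain of C8, a lipocalin that joins the pore-forming alpha and beta chains. It had 17.3 and 4.95 RPKM in TG Aire-/- livers, against 175 and 143 in Aire+/+ livers (log2 difference −3.93, SE 0.505, adjusted p = 0.00258). The mean in TG Aire-/- livers was 6.99% of the Aire+/+ mean, and the call held in 14 of 14 alternatives. C8a, the alpha chain, had 26.8 and 20.8 RPKM in TG Aire-/- livers, against 93.1 and 102 in Aire+/+ livers (−1.998, adjusted p = 0.0431), and C8b, the beta chain, had 25.8 and 14.9 RPKM in TG Aire-/- livers, against 45.2 and 52.6 in Aire+/+ livers (−1.27, adjusted p = 0.0574). C8a fell and C8b, its neighbour on chromosome 4, did not pass, and in both genes the groups did not overlap. C9, which polymerises into the pore wall, had 38.8 and 8.91 RPKM in TG Aire-/- livers, against 26.02 and 45.2 in Aire+/+ livers (−0.83, adjusted p = 0.429), with the groups overlapping.

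C6, the terminal component that joins C5b, was the exception. It had 21.3 and 15.3 RPKM in TG Aire-/- livers, against 3.97 and 3.71 in Aire+/+ livers (log2 difference 1.98, SE 1.01, adjusted p = 0.154). The TG Aire-/- mean was 4.77 times the Aire+/+ mean and the groups did not overlap, yet no call was made. All 3 groups share the estimate of spread, and C6 differed widely between the CD8-depleted libraries. With only the 2 groups compared in the fit the standard error was 0.254 and the adjusted p 0.00357, and over all alternatives the adjusted p was between 0.00357 and 0.363.

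Among the complement regulators 1 of 4 fell. Cfi, the protease that degrades C3b and C4b, had 149.6 and 118 RPKM in TG Aire-/- livers, against 313 and 286 in Aire+/+ livers (−1.17, adjusted p = 0.0234). C4bp, a cofactor for that cleavage, had 119.9 and 87.3 RPKM in TG Aire-/- livers, against 244 and 265 in Aire+/+ livers (−1.30, adjusted p = 0.0699), and Vtn (vitronectin), which blocks pore insertion, had 919 and 353 RPKM in TG Aire-/- livers, against 1525 and 1258 in Aire+/+ livers (−1.28, adjusted p = 0.0971). Neither passed, though neither overlapped. Serping1, the inhibitor of C1 and of the contact proteases, had 382 and 277 RPKM in TG Aire-/- livers, against 287 and 316 in Aire+/+ livers (0.11, adjusted p = 0.840). Its groups overlapped and its sign turned under median-of-ratios scaling.

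**Figure D3:**
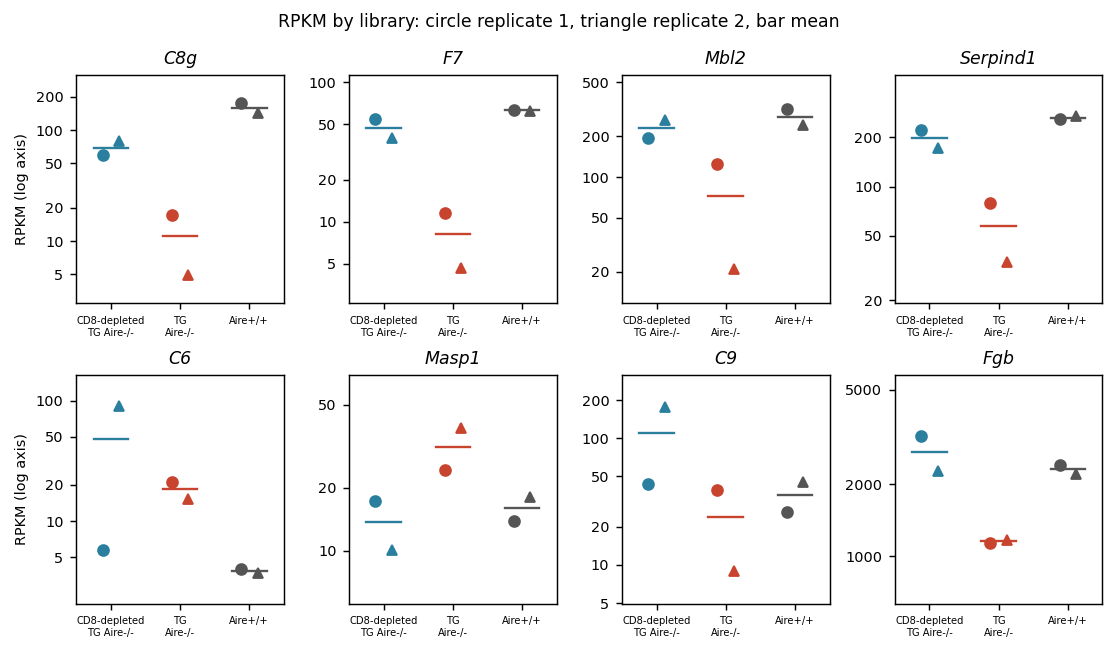
RPKM on log axes is shown by library for 8 members, with CD8-depleted TG Aire-/-, TG Aire-/- and Aire+/+ livers from left to right, circles for replicate 1, triangles for replicate 2 and bars for means. C8g, F7, Mbl2 and Serpind1 are lowest in both TG Aire-/- livers, Masp1 is highest there, and C6 and C9 are highest in CD8-depleted replicate 2.

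Of the vitamin K dependent proenzymes F2, F7, F9 and F10 and the non-enzymatic cofactor protein Z (Proz), 4 of 5 fell. F7, which starts clotting when it meets tissue factor, had 11.6 and 4.70 RPKM in TG Aire-/- livers, against 63.1 and 62.7 in Aire+/+ livers (log2 difference −2.92, SE 0.400, adjusted p = 0.00293), a mean of 12.9% of that in Aire+/+ livers. F9, the haemophilia B factor, had 22.4 and 17.7 RPKM in TG Aire-/- livers, against 62.02 and 69.8 in Aire+/+ livers (−1.68, adjusted p = 0.00450). F10, which forms the prothrombinase with F5, had 86.8 and 43.8 RPKM in TG Aire-/- livers, against 217 and 189.9 in Aire+/+ livers (−1.70, adjusted p = 0.0133). Each TG Aire-/- value of these 3 genes was below each Aire+/+ value. Proz, which with its serpin partner restrains factor Xa, had 37.5 and 20.5 RPKM in TG Aire-/- livers, against 103 and 104 in Aire+/+ livers (−1.86, adjusted p = 0.00657). F2 (prothrombin), the substrate at the end of this chain, had 479 and 416 RPKM in TG Aire-/- livers, against 914 and 803 in Aire+/+ livers and did not pass (−0.94, adjusted p = 0.0668). F7, F10 and Proz lie within 100000 bases of each other on chromosome 8. The calls of F7 and Proz held in 14 of 14 alternatives and that of F9 in 13.

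Of the anticoagulant pair 1 fell. Proc (protein C), which inactivates factors Va and VIIIa, had 109 and 43.95 RPKM in TG Aire-/- livers, against 262 and 208 in Aire+/+ livers (−1.74, adjusted p = 0.0212). Pros1 (protein S), its cofactor, which endothelium and other cells also make, had 19.3 and 16.8 RPKM in TG Aire-/- livers, against 18.1 and 21.1 in Aire+/+ livers (−0.11, adjusted p = 0.749), with overlapping groups. The difference between Proc and Pros1 was not tested. In the enzymes that add or recycle the vitamin K dependent modification, 2 of 4 fell. Ggcx, the gamma-carboxylase, had 7.32 and 4.93 RPKM in TG Aire-/- livers, against 17.6 and 19.4 in Aire+/+ livers (−1.47, adjusted p = 0.0140), and Vkorc1, the warfarin target, had 89.5 and 39.2 RPKM in TG Aire-/- livers, against 191 and 181 in Aire+/+ livers (−1.63, adjusted p = 0.0198).

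In the contact system 1 of 4 fell. Klkb1 (prekallikrein) had 16.98 and 6.88 RPKM in TG Aire-/- livers, against 43.9 and 46.2 in Aire+/+ livers (log2 difference −1.95, SE 0.394, adjusted p = 0.00927). Its neighbour on chromosome 8, F11, which diverged from the same ancestral gene, had 17.8 and 16.05 RPKM in TG Aire-/- livers, against 26.7 and 29.7 in Aire+/+ livers (−0.71, adjusted p = 0.115). Kng1, the kininogen that releases bradykinin and has a near-identical copy, Kng2, had 553 and 436 RPKM in TG Aire-/- livers, against 792 and 786 in Aire+/+ livers (−0.68, adjusted p = 0.188). F12, the contact trigger, had 199 and 139 RPKM in TG Aire-/- livers, against 255 and 177 in Aire+/+ livers (−0.35, adjusted p = 0.437) with overlapping groups. The difference between Klkb1 and F11 was not tested.

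Fgb, the beta chain of fibrinogen, was the most abundant member in Aire+/+ livers. Fga had 511 and 633 RPKM in TG Aire-/- livers, against 1141 and 1131 in Aire+/+ livers (−0.996, adjusted p = 0.0809), Fgb had 1136 and 1171 RPKM in TG Aire-/- livers, against 2421 and 2211 in Aire+/+ livers (−1.004, adjusted p = 0.0966) and Fgg had 718 and 755 RPKM in TG Aire-/- livers, against 1855 and 1825 in Aire+/+ livers (−1.32, adjusted p = 0.0326). Only Fgg passed the threshold among the 3, and all 3 had both TG Aire-/- values below both Aire+/+ values. The difference between the chains was not tested. F5, the cofactor of factor Xa, had 23.6 and 34.5 RPKM in TG Aire-/- livers, against 51.4 and 59.5 in Aire+/+ livers (−0.93, adjusted p = 0.0848). F13b, the carrier subunit of the fibrin-crosslinking factor XIII, had 30.2 and 28.6 RPKM in TG Aire-/- livers, against 76.2 and 78.2 in Aire+/+ livers and fell (−1.36, adjusted p = 0.0179).

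Both serpins that inhibit thrombin fell. Serpinc1 (antithrombin) had 361 and 181 RPKM in TG Aire-/- livers, against 925 and 809 in Aire+/+ livers (−1.75, adjusted p = 0.0179), and Serpind1 (heparin cofactor II) had 79.6 and 34.6 RPKM in TG Aire-/- livers, against 259.9 and 270.2 in Aire+/+ livers (log2 difference −2.31, SE 0.422, adjusted p = 0.00670). The Serpind1 call held in 14 of 14 alternatives. All 3 fibrinolysis members fell too. Plg (plasminogen) had 328 and 213 RPKM in TG Aire-/- livers, against 858 and 808 in Aire+/+ livers (−1.65, adjusted p = 0.0162). Serpinf2, the plasmin inhibitor, had 212 and 103 RPKM in TG Aire-/- livers, against 536 and 477 in Aire+/+ livers (−1.77, adjusted p = 0.0228), and Cpb2, the carboxypeptidase that protects fibrin from plasmin, had 110.0 and 66.3 RPKM in TG Aire-/- livers, against 179 and 215 in Aire+/+ livers (−1.19, adjusted p = 0.0318). Procoagulant, anticoagulant and fibrinolytic members were thus all among those called lower.

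Set against Alb, fewer members were called and their median was nearer to 0. Alb had 49396 and 24359 RPKM in CD8-depleted livers, 24388 and 18964 in TG Aire-/- livers and 35829.8 and 39474 in Aire+/+ livers and did not pass in TG Aire-/- against Aire+/+ livers (log2 difference −0.81, SE 0.728, adjusted p = 0.399), though those groups did not overlap. Each library was scaled so that its Alb value equalled the mean of the 6 livers, and all genes were fitted again. Relative to Alb, 4 members were called lower in TG Aire-/- than in Aire+/+ livers, where 1.38% of all genes were called lower. Another 2 members were called higher, where 38.9% of all genes were. The members' median was −0.48 and that of all genes tested 1.19. Hepatocyte markers are the nearer comparison. Of those 26, Alb included, 2 were called lower and 0 higher relative to Alb, with a median of −0.30. Calls relative to Alb were thus not particular to the members. Scaling to Alb carries the spread of Alb itself into every gene, and the standard errors of the members then lay between 0.515 and 0.675. In these scaled fits the standard errors followed a spread shared by genes of like level, not each gene's own replicates. Alb, equal in all libraries after scaling, still had a standard error of 0.389, and that of C6 went from 1.01 on RPKM to 0.675. The adjusted p-values relative to Alb therefore do not measure a gene's own replicate spread.

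The 4 lower members were C8g, F7, Mbl2 and Serpind1. C8g had 0.710 and 0.261 RPKM per 1000 RPKM of Alb in TG Aire-/- livers, against 4.90 and 3.63 in Aire+/+ livers (log2 difference −3.19, SE 0.660, adjusted p = 1.86e-05). For F7 these ratios were 0.475 and 0.248 in TG Aire-/- livers, against 1.76 and 1.59 in Aire+/+ livers (−2.18, adjusted p = 0.00524). Mbl2 had 5.12 and 1.12 in TG Aire-/- livers, against 8.84 and 6.14 in Aire+/+ livers (−1.61, adjusted p = 0.0309). Serpind1 had 3.26 and 1.82 in TG Aire-/- livers, against 7.25 and 6.85 in Aire+/+ livers (−1.52, adjusted p = 0.0418). In each of the 4, both TG Aire-/- ratios were below both Aire+/+ ratios. The 2 higher members were C6, with 0.873 and 0.809 in TG Aire-/- livers against 0.111 and 0.0939 in Aire+/+ livers (log2 difference 2.71, SE 0.675, adjusted p = 0.000444), and Masp1, with 0.999 and 2.03 in TG Aire-/- livers against 0.388 and 0.459 in Aire+/+ livers (1.69, adjusted p = 0.0348).

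Genes that fell on RPKM and came near 0 relative to Alb included C4b (−0.23), Cfb (−0.34), Cfi (−0.36) and Cpb2 (−0.39). C3 (−0.02), F2 (−0.13), Fga (−0.19) and Fgb (−0.20) were near 0 as well, and none of these passed. Estimates near −1 without a call included Proz (−1.08), Klkb1 (−1.199), C8a (−1.21), Mbl1 (−1.15), Serpinf2 (−0.97), Serpinc1 (−0.95) and Proc (−0.94). All 7 were called lower relative to Alb with only the 2 groups compared in the fit. F10 (−0.91), F9 (−0.90), Masp2 (−0.86) and Plg (−0.85) came next, so these members form no separate set. F13b (−0.57), Fgg (−0.51), C4bp (−0.50), C8b (−0.49), Vtn (−0.47), F5 (−0.15) and C9 (−0.07) were nearer to 0. Above 0 were C2 (1.07), Serping1 (0.91), Pros1 (0.66), F12 (0.45), Kng1 (0.12) and F11 (0.07). None of these passed in the main fit. The ratios of 22 members were lower in TG Aire-/- than in Aire+/+ livers without overlap, as were those of 5.79% of all genes tested, and the ratios of 7 were higher without overlap, as were those of 84.3% of all genes.

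The choice of yardstick mattered. With the hepatocyte markers other than Alb as the yardstick, the members' median was −0.04, with 20 members below 0 and 18 above, and 4 were called lower and 4 higher. With Apoa1 the median was −0.32, with Ttr it was 0.37, and 1 member was called lower with either. C8g was lower and C6 higher with each of these yardsticks, with C8g between −3.19 on Alb and −2.37 on Ttr. The calls depended on single libraries too. Without Aire+/+ replicate 1 there were 0 lower and 0 higher, without Aire+/+ replicate 2 there were 1 and 0, and without TG Aire-/- replicate 2 there were 0 and 1. Without TG Aire-/- replicate 1 there were 3 lower and 1 higher. With either CD8-depleted library left out there were 15 and 4.

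In CD8-depleted livers of the same genotype most members were higher than in TG Aire-/- livers. Limma called 19 of 38 higher (50%), where 4.49% of all genes tested were called higher. It called 1 lower, Masp1, where 33.5% of all genes were. The members' median log2 difference was 1.21 and that of all genes −0.58. This comparison shares its TG Aire-/- libraries with the one above, so the 2 are not independent. Of the hepatocyte markers 7 of 26 were called higher, with a median of 0.86, while 8 of 12 macrophage, 11 of 11 T and cytotoxic cell and 10 of 11 endothelial genes were called lower. Without TG Aire-/- replicate 2 the count of higher members was 3, with either Aire+/+ library left out 9, without CD8-depleted replicate 1 12, and with sex as a term 8.

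C8g had 59.4 and 79.2 RPKM in CD8-depleted livers, against 17.3 and 4.95 in TG Aire-/- livers (log2 difference 2.74, SE 0.505, adjusted p = 0.00742). F7 had 54.7 and 39.6 RPKM in CD8-depleted livers, against 11.6 and 4.70 in TG Aire-/- livers (log2 difference 2.49, SE 0.400, adjusted p = 0.00478). F9 had 83.5 and 79.001 RPKM in CD8-depleted livers, against 22.4 and 17.7 in TG Aire-/- livers (log2 difference 1.98, SE 0.268, adjusted p = 0.00284). In all 3 the groups were well apart, and the calls held in 15 of 15 alternatives. Serpind1 had 223 and 173 RPKM in CD8-depleted livers (1.88, adjusted p = 0.0136), and Klkb1 had 40.5 and 35.7 RPKM in CD8-depleted livers (1.71, adjusted p = 0.0148). Both of these genes also had CD8-depleted values above both TG Aire-/- values.

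By role, 4 of 5 of the vitamin K dependent proenzymes and protein Z rose, with F10 (1.18, adjusted p = 0.0436) and Proz (1.67, adjusted p = 0.00975) besides F7 and F9, and F2 not called (0.17, adjusted p = 0.705). In the fibrin group 4 of 5 rose. Fga had 1587 and 1079 RPKM in CD8-depleted livers (1.2003, adjusted p = 0.0462), Fgg had 2228 and 1949.9 RPKM in CD8-depleted livers (1.4996, adjusted p = 0.0211), and F5 (1.13, adjusted p = 0.0472) and F13b (1.09, adjusted p = 0.0361) rose as well. Fgb had 3210.1 and 2277 RPKM in CD8-depleted livers and just missed the threshold (1.23, adjusted p = 0.0541). Both thrombin serpins rose, with Serpinc1 at 659 and 803 RPKM in CD8-depleted livers (1.504, adjusted p = 0.0289). Of the fibrinolysis genes Plg (1.22, adjusted p = 0.0435) and Cpb2 (1.66, adjusted p = 0.0105) rose and Serpinf2 did not pass (1.28, adjusted p = 0.0627). In the contact system Kng1 rose along with Klkb1, with 1485 and 1026 RPKM in CD8-depleted livers (1.33, adjusted p = 0.0304), while F11 (0.01, adjusted p = 0.979) and F12 (−0.06, adjusted p = 0.892) stayed near 0.

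The complement members called higher were Masp2 (1.32, adjusted p = 0.0140), C3, C8b, C8g and Cfi (1.003, adjusted p = 0.0372). C3 had 1845 and 1759.7 RPKM in CD8-depleted livers, against 675 and 895 in TG Aire-/- livers (1.21, adjusted p = 0.0433). C8b had 43.9 and 102 RPKM in CD8-depleted livers (1.72, adjusted p = 0.0218), so both values lay above the TG Aire-/- values. C9 (2.16, adjusted p = 0.0674) and C8a (1.70, adjusted p = 0.0703) did not pass, with both CD8-depleted values above both TG Aire-/- values, and Mbl1 (1.08, adjusted p = 0.193) did not pass, with overlapping groups. Other cases without a call were Mbl2, with 194 and 265 RPKM in CD8-depleted livers (2.11, adjusted p = 0.0533), C4b (0.46, adjusted p = 0.262), Cfb (0.78, adjusted p = 0.0945), C2 (−0.09, adjusted p = 0.789), C4bp (1.16, adjusted p = 0.0948), Vtn (0.96, adjusted p = 0.191) and Serping1 (0.52, adjusted p = 0.310). Proc (1.197, adjusted p = 0.0675) and Pros1 (0.73, adjusted p = 0.0586) were not called. Masp1, the member that fell, had 17.3 and 10.1 RPKM in CD8-depleted livers, against 24.4 and 38.5 in TG Aire-/- livers (log2 difference −1.16, SE 0.357, adjusted p = 0.0386). That call was lost in 10 of 15 alternatives.

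Relative to Alb, 2 members were called higher in CD8-depleted than in TG Aire-/- livers, C8g (2.11, adjusted p = 0.00675) and F7 (1.87, adjusted p = 0.0194), where 1.46% of all genes were called higher. Masp1 was called lower (−1.83, adjusted p = 0.0236), where 34.8% of all genes were. The members' median was 0.52 and that of all genes −1.13. Of the 26 hepatocyte markers, Alb included, 2 were called higher and 0 lower relative to Alb, with a median of 0.17. Alb itself differed between the CD8-depleted replicates, at 49396 and 24359 RPKM. Without CD8-depleted replicate 1 the counts were 16 higher and 1 lower, and without replicate 2 they were 2 and 7. Without TG Aire-/- replicate 1 they were 4 and 1. They were 0 and 0 without TG Aire-/- replicate 2 or either Aire+/+ library, and 0 and 0 with sex as a term.

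CD8-depleted TG Aire-/- livers and Aire+/+ livers were closer. Limma called 0 of 38 members higher (2 at an unadjusted p under 0.05), where 0.221% of all genes were called higher. It called 0 lower (1 at an unadjusted p under 0.05), where 0.327% were. The members' median was −0.25 and that of all genes −0.04. In 16 members both CD8-depleted values lay below both Aire+/+ values, as in 28.8% of all genes tested, and in 9 above, as in 20.2%. The lowest estimate was that of C8g, with 59.4 and 79.2 RPKM in CD8-depleted livers against 175 and 143 in Aire+/+ livers (log2 difference −1.197, SE 0.505, adjusted p = 0.452). F2 (−0.77, adjusted p = 0.483) and F11 (−0.69, adjusted p = 0.488) also had estimates below 0, without a call. The highest estimates were those of C6 (2.37, adjusted p = 0.456) and C9 (1.33, adjusted p = 0.617), again without a call, and Kng1 (0.65, adjusted p = 0.608) and Pros1 (0.62, adjusted p = 0.447) had lower ones. Relative to Alb, C6 was called higher (2.49, adjusted p = 0.0254), where 0.613% of all genes were. That call rests on CD8-depleted replicate 2: C6 had 0.117 and 3.74 RPKM per 1000 RPKM of Alb in CD8-depleted livers, against 0.111 and 0.0939 in Aire+/+ livers, and without that library the estimate was 0.15 (adjusted p = 0.931). Relative to Alb, 0 members were called lower (0 at an unadjusted p under 0.05), where 0.368% were. The members' median was then −0.14, beside 0.06 over all genes.

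Of the 5 terminal complement members, 4 were at least 2-fold higher in replicate 2 than in replicate 1 of the CD8-depleted livers. C6 had 5.78 RPKM in CD8-depleted replicate 1 and 91.1 in replicate 2, beside 21.3 and 15.3 in TG Aire-/- livers and 3.97 and 3.71 in Aire+/+ livers. Its estimate against TG Aire-/- livers was 0.39 (adjusted p = 0.773), and it was −1.49 without CD8-depleted replicate 2 and 2.27 without replicate 1. C9 had 43.3 and 176 RPKM in CD8-depleted livers, C8a had 35.8 and 172 RPKM in CD8-depleted livers and C8b had 43.9 and 102 RPKM in CD8-depleted livers, again with the higher value in replicate 2. The fifth, C8g, had 59.4 and 79.2 RPKM in CD8-depleted livers. C4bp (139 and 383 RPKM) and Mbl1 (34.6 and 120.3) followed the same order. In all, 6 of 38 members were at least 2-fold higher in CD8-depleted replicate 2, where 19.6% of all genes tested were, so that share is not particular to the members. Another 23 of 38 were lower there, where 32.7% of all genes were. Acute phase genes differed between the same libraries, not all in the same direction, with Hamp higher in replicate 1. Saa2, a serum amyloid, had 11.5 RPKM in replicate 1 and 354 in replicate 2. Macrophage markers summed to 179.7 and 586 RPKM there. The part of either in these member values was not tested.

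**Figure D4:**
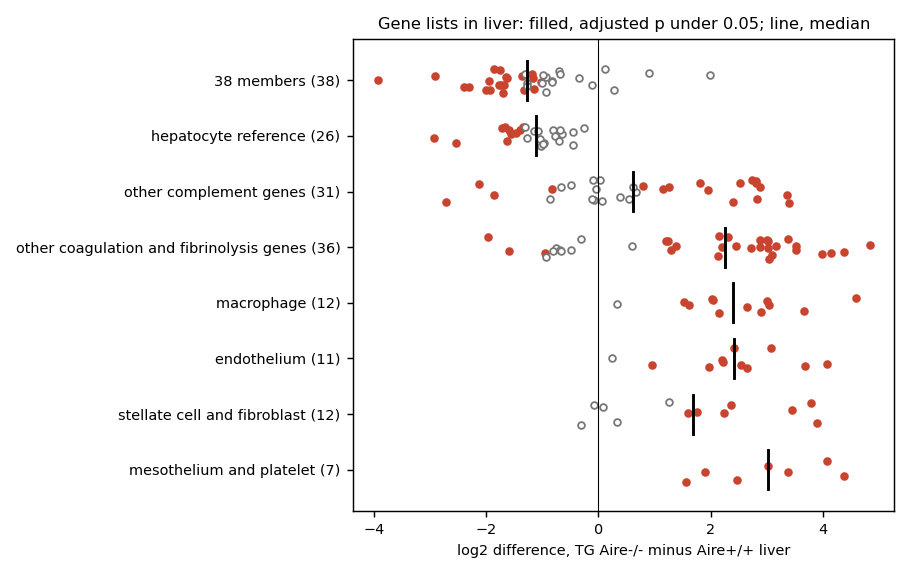
Log2 differences between TG Aire-/- and Aire+/+ livers are plotted by gene list, with the number of genes tested in brackets, filled points for genes past an adjusted p of 0.05 and a line at each median. The members and the hepatocyte reference lie mostly below 0, and the other complement and coagulation genes and the markers of non-hepatocyte cells mostly above.

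Other genes of the 2 cascades are set beside all genes tested, of which 31.8% rose and 5.5% fell in TG Aire-/- against Aire+/+ livers. Of 31 other complement genes tested, 14 rose and 4 fell in TG Aire-/- against Aire+/+ livers, with a median of 0.62. Several of those that rose are genes of phagocytes, and macrophage markers moved with them, summing to 179.7 and 586 RPKM in CD8-depleted livers, 1195 and 1188 in TG Aire-/- livers and 178 and 171 in Aire+/+ livers. C1qb, a chain of C1q, which macrophages make, had 42.1 and 110.4 RPKM in CD8-depleted livers, 286 and 313 in TG Aire-/- livers and 46.2 and 36.7 in Aire+/+ livers (2.83, adjusted p = 0.00447). Itgam, a chain of complement receptor 3, rose (3.35, adjusted p = 0.00546), as did Cd93 (3.39, adjusted p = 0.00507), Itgb2 (2.89, adjusted p = 0.00323), C1qa (2.81, adjusted p = 0.00738) and C1qc (2.81, adjusted p = 0.00483). Those that fell included Hc, the gene for complement C5, with 148 and 117 RPKM in CD8-depleted livers, 40.9 and 25.7 in TG Aire-/- livers and 133 and 157 in Aire+/+ livers (−2.12, adjusted p = 0.00405) and C1rl (−0.83, adjusted p = 0.0399). Hc and C1rl were chosen for naming after their values were seen, as were Orm1, Saa1 and Saa2. In CD8-depleted against TG Aire-/- livers 4 of the 31 rose and 14 fell, where 4.49% and 33.5% of all genes did.

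Of 36 other coagulation and fibrinolysis genes tested, 25 rose and 3 fell in TG Aire-/- against Aire+/+ livers, with a median of 2.26. Thbs1 (thrombospondin), released by platelets and stromal cells, had 0.676 and 1.49 RPKM in CD8-depleted livers, 35.7 and 135 in TG Aire-/- livers and 1.15 and 1.85 in Aire+/+ livers (4.83, adjusted p = 0.00217). Pf4, a platelet chemokine, had 2.76 and 3.59 RPKM in CD8-depleted livers, 60.5 and 88.7 in TG Aire-/- livers and 3.86 and 1.66 in Aire+/+ livers (4.37, adjusted p = 0.00148). Anxa2, a surface docking site for plasminogen, rose (4.15, adjusted p = 0.00394), as did the urokinase receptor gene Plaur (3.51, adjusted p = 0.00277) and Plat, the tissue plasminogen activator gene (3.51, adjusted p = 0.00373). Endothelial markers summed to 39.6 and 48.99 RPKM in CD8-depleted livers, 253 and 437 in TG Aire-/- livers and 53.1 and 39.6 in Aire+/+ livers, and mesothelial and platelet markers to 5.29 and 12.4 RPKM in CD8-depleted livers, 166 and 221 in TG Aire-/- livers and 11.6 and 7.74 in Aire+/+ livers. In CD8-depleted against TG Aire-/- livers 2 of the 36 rose and 26 fell.

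A further pair of lists was examined because it bears on how hepatocytes make these proteins. Of 16 hepatocyte transcription factor genes tested, 5 fell and 1 rose in TG Aire-/- against Aire+/+ livers, with a median of −0.61. Nr1i3, the xenobiotic receptor CAR, had 47.8 and 41.4 RPKM in CD8-depleted livers, 9.02 and 8.38 in TG Aire-/- livers and 66.6 and 57.3 in Aire+/+ livers (−2.69, adjusted p = 0.00184). Cebpa, which encodes the C/EBP alpha factor, had 49.9 and 86.8 RPKM in CD8-depleted livers, 41.5 and 29.3 in TG Aire-/- livers and 125 and 112 in Aire+/+ livers (−1.73, adjusted p = 0.00958). Nr0b2 (−1.92, adjusted p = 0.0116), Ppara (−1.22, adjusted p = 0.0258) and Nr1h4 (−0.79, adjusted p = 0.0442) also fell, and Onecut1 rose (1.68, adjusted p = 0.0347). Of 29 acute phase genes tested, 5 rose and 4 fell, with a median of −0.02. Of all genes tested, 31.8% rose and 5.5% fell in this comparison. Saa4, a constitutive serum amyloid, had 39.1 and 113 RPKM in CD8-depleted livers, 11.1 and 6.77 in TG Aire-/- livers and 191 and 205 in Aire+/+ livers (−4.36, adjusted p = 0.00207), whereas Saa3, a form made mainly outside hepatocytes, rose (2.44, adjusted p = 0.00710). Neutrophil genes (8 of 9 higher), stellate and fibroblast genes (7 of 12) and mesothelial and platelet genes (7 of 7) were called higher too. B and plasma cell genes (0 of 5) were not. Cholangiocyte genes (3 of 7 higher) were nearest to the 31.8% of all genes.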

How the data were processed

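RNA from whole liver was sequenced in bulk, and the deposited values are RPKM, made by the authors. Per the submitters' processing notes, STAR 2.5.2b and the mm10 build were used. No source used here states the counting tool, the annotation or the strand rule. RPKM sums are compositional, so a rise of some genes lowers others. Of 22 samples, the 6 livers labelled as the second batch were analysed, 9 thymus and 3 CD8+ T cell libraries were described only, and 4 livers were not analysed here. Low RPKM values were taken to come in steps of 1 read, and the best-fitting step size gave the depth. Values far below 1 read occur too, so inferred depth is approximate. F12 had 0.000314 RPKM in Aire-/- thymus replicate 1, where 3 reads would give at least 0.0512. Between 40.5% and 49.3% of the low values were whole reads within 0.1 read, too loose to recover reads. That share is the highest over the depths tried, so the 20% that chance gives at 1 fixed depth is not a like comparison.

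Two-sided tests were made with limma 3.58.1 under R 4.3.3 (lmFit and eBayes, intensity trend on) on log2(RPKM + 1), which understates changes of low genes. All 3 groups entered 1 fit without covariates. Genes with at least 1 RPKM in at least 2 libraries were kept (12231), and p-values were adjusted over all of them by the Benjamini-Hochberg method at a threshold of 0.05. Another set of fits scaled each library to the same Alb value. The labels do not say that replicates are separate animals. Sex genes place the replicates of TG Aire-/- and of Aire+/+ livers in different mice. For the 2 CD8-depleted livers, both male, this is not known, so the spread between them may be partly technical. On RPKM, p-values measure the spread between replicate libraries, pooled in part across genes. Relative to Alb, p-values rest on a spread shared by genes of like level, not on each gene's own. The RPKM fit was also run on simulated data in which only 200 genes changed. That check required only that larger changes be recovered more often than smaller ones. Far more genes were called in the real comparison of TG Aire-/- with Aire+/+ livers, so the check gives no error rate for it. Fits relative to Alb were not simulated. Every member is accounted for. Of other lists up to 6 genes past the threshold with the largest difference were named. Some genes of those lists are not reported here. The members and lists were chosen with earlier results of these data known. Alternatives were another pseudocount, no filter, no trend, 2 other scalings, a fit of 2 groups alone, a replicate block, other yardsticks than Alb, each library left out and, added after seeing the data, sex as a term and crossed replicate numbers. Gene positions are from GENCODE vM21 on GRCm38, the assembly that mm10 names, and promoters from RefSeq on GRCm38.p6.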

Additional observations from a re-analysis of the deposited data

Results flagged for a closer look

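Members were also read in 9 thymus libraries (3 each of TG Aire-/-, TG Aire+/- and Aire-/- mice) and 3 libraries of CD8+ T cells (1 of each of these genotypes). Neither set enters a comparison above, and both were normalized in separate tables. A gene is given here where its lowest value was at least 1 RPKM in every library of the set. In thymus 7 members met this. The lowest of the 9 values was 4.05 RPKM for Masp2, 1.76 for C2, 5.52 for C3, 1.77 for Cfb, 1.07 for C8g, 3.57 for Serping1 and 1.89 for Pros1. Among CD8+ T cells the lowest of the 3 values of Masp2 was 3.15 RPKM, and no other member met it. Masp2 shares exonic bases with Tardbp on the other strand. By contrast, 25 members were below 1 RPKM in every thymus library and 32 in every CD8+ T cell library.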

How the results depend on the processing

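Every call count depended on libraries, with 2 a group. Of the members lower in TG Aire-/- against Aire+/+ livers (21), 13 were called without the filter, 21 with the other pseudocount, 25 without the trend, 28 with only the 2 groups, 18 with sex as a term, 29 under median-of-ratios and 27 under upper-quartile scaling, and between 4 and 27 with a library left out. Members higher were 0, 1 (C6) with only the 2 groups, and between 0 and 1 with a library left out. Median-of-ratios scaling moved the median of all genes by 0.53 to 0.00 and that of the members to −1.93. For CD8-depleted against TG Aire-/- livers (19 higher, 1 lower) the counts were 9 and 0 without the filter, 9 and 0 with only the 2 groups, 8 and 0 with sex as a term, 29 and 0 under median-of-ratios and 28 and 0 under upper-quartile scaling. Leaving out a library gave between 3 and 20 higher and between 0 and 1 lower. For CD8-depleted against Aire+/+ livers leaving out a library gave 0 to 1 higher (C6, without CD8-depleted replicate 1) and 0 lower, and the other alternatives gave 0.

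Relative to Alb, TG Aire-/- against Aire+/+ livers (2 higher, 4 lower) had 0 and 2 without the filter, 4 and 15 with only the 2 groups, 1 and 2 with sex as a term, 4 and 4 with the hepatocyte list, 1 and 1 with Apoa1 and 6 and 1 with Ttr. Leaving out a library gave between 0 and 4 higher and between 0 and 15 lower. CD8-depleted against TG Aire-/- livers (2 higher, 1 lower) had 0 and 0 without the filter, 4 and 1 without the trend, 0 and 0 with only the 2 groups or with sex as a term, 4 and 2 with the hepatocyte list, and 3 and 0 with Apoa1. Leaving out a library gave between 0 and 16 higher and between 0 and 7 lower. CD8-depleted against Aire+/+ livers (1 higher, 0 lower) had 0 higher without the filter, with only the 2 groups and with sex as a term. Leaving out a library gave between 0 and 4 higher and between 0 and 2 lower. The cause of these shifts was not tested, except that fewer samples enter the fits that leave out a library or a group. C6 changed sign between CD8-depleted and TG Aire-/- livers: 0.39 with all libraries, −1.49 without CD8-depleted replicate 2 and 2.27 without replicate 1. Relative to Alb these were −0.22, −2.56 and 2.11.

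Replicate numbers do not pair the samples by the labels. Deviations of same-numbered replicates had r = 0.29 for TG Aire-/- with Aire+/+, −0.145 for CD8-depleted with TG Aire-/- and −0.093 for CD8-depleted with Aire+/+ livers. With the replicate block, 19 members were lower and 0 higher in TG Aire-/- against Aire+/+ livers, 19 were higher and 0 lower in CD8-depleted against TG Aire-/-, and 0 were called in CD8-depleted against Aire+/+. Relative to Alb the block gave 2 higher and 2 lower, 2 higher and 1 lower, and 1 higher and 0 lower for the same comparisons. Crossed pairing of CD8-depleted with TG Aire-/- livers gave 20 higher and 1 lower, and relative to Alb 2 and 1. At 20300000 reads or more, depth limited low genes more than the members, whose lowest Aire+/+ mean was 3.84 RPKM (C6).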

Other observations

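Mbl2 in thymus was low in every library. It was listed at 0 in all 3 TG Aire-/- libraries, at 0.434, 0.396 and 0.568 RPKM in TG Aire+/- libraries, and at 0.245, 0.0710 and 0 in Aire-/- libraries. The value that 3 reads would give on Mbl2 was between 0.0921 and 0.123 RPKM over the thymus libraries, and the 0.0710 of an Aire-/- library lay below that. At this depth a listed 0 does not show that the RNA was absent. No test was run. A single thymus library stood apart on members that stromal cells and macrophages also express. C3 had 222 RPKM in TG Aire-/- replicate 1, against 12.7 and 5.52 in the other TG Aire-/- libraries. Serping1 had 106 RPKM there, against 6.72 and 4.88 in the other TG Aire-/- libraries. Cfb had 57.1 and C4b 44.9 RPKM in that library.

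In CD8-depleted livers Hamp, the gene for the iron hormone hepcidin, had 2815 and 834 RPKM, against 1.39 and 3.02 in TG Aire-/- livers and 0 and 0.122 in Aire+/+ livers. Its order between the CD8-depleted replicates was opposite to that of Orm1, Saa1 and Saa2.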
